A study of Mus musculus with 27 samples.

Results

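Mouse bone marrow-derived macrophages (BMDM) that had met a Toll-like receptor (TLR) ligand, been washed and met the same ligand again were compared between CpG DNA and Pam3CSK4. The comparison used 6 of the 27 arrays of the series, 3 of re-stimulated CpG and 3 of re-stimulated Pam3CSK4, chosen by their sample titles alone. All BMDM came from female C57BL/6 mice aged 6 to 8 weeks and were grown for 7 days in medium conditioned by L929 cells, a fibroblast line that secretes the macrophage growth factor CSF1. Cells received a ligand for 24 h, were washed and rested for 1 h, and then received the same ligand for 4 h before RNA was taken. Pam3CSK4 was used at 100 ng/ml. For CpG the sample labels give 100 µM in both steps, while the methods give 1 µM. The methods say in one passage that every replicate was 1 mouse and in another that marrow of 3 mice was pooled for it. The p-values of fits without a block therefore measure the spread between 3 such cultures per ligand. With the replicate number as a block, they measure the spread of the differences between same-numbered cultures. Cy3-labelled RNA was read on 1-colour Agilent arrays of 62976 spots, and values are log2 normalized intensities. Each replicate number was 1 slide, and on every slide the CpG array lay at row 2 and the Pam3CSK4 array at row 1 of the same column, so array position and ligand cannot be told apart. Between 42.1% and 46.1% of probes were above background on the 6 arrays. Slide 3 stood apart in some marker genes of other cell types. S100a9, a neutrophil gene, read 14.95, 15.57 and 5.65 in CpG replicates 1, 2 and 3 and 14.25, 15.32 and 5.93 in Pam3CSK4. Both arrays of slide 3 were far below the others, as they were for Ccr7 (6.80 in CpG and 5.79 in Pam3CSK4, against 10.55 to 10.86 on the other slides), while the neutrophil genes S100a8, Camp and Elane were not. The part of this in the results was not tested.

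CpG DNA is sensed by TLR9, which is carried by UNC93B1 to endosomes. Pam3CSK4, a synthetic bacterial lipopeptide, is sensed at the cell surface by TLR2 paired with TLR1, with help from CD14. Both receptors use the adapter MYD88 to activate NF-κB and MAP kinases. Endosomal receptors can in addition engage interferon regulatory factors, which drive the interferon-β gene. Secreted interferon-β then acts through its receptor and JAK kinases on promoters that carry an interferon-stimulated response element.

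The question was how far the cells' expression after the second stimulation differed with the ligand. Interferon-β and many genes it induces were among the genes that differed most, and they were higher after CpG. Over the 38 type I interferon response genes tested, the median difference was 1.34 log2 units, and all 38 were higher after CpG on average. Over all 18483 genes tested (1 probe each) the median difference was −0.04. Without a term for the slide, limma called 0 of 25208 probes (0% in either direction), where a call needed 1.5-fold or more and an adjusted p under 0.05. The smallest adjusted p was 0.0718, shared by Ifnb1, Rsad2 and other probes. In this fit 1089 probes had an unadjusted p under 0.05, of which 808 were higher after CpG and 281 lower. These 1089 are a smaller share of the 25208 probes than 0.05, the share expected with no difference. Without Pam3CSK4 replicate 3 the same fit called 33 probes, all higher after CpG. With the replicate number as a block, which compares the 2 arrays of each slide, limma called 124 probes, 121 higher after CpG (0.48% of the probes tested) and 3 lower (0.0119%). With the same block in a fit of the 8 groups that share the slides, 13 probes were called, all higher after CpG. The 124 probes carried 100 names, 59 of them gene symbols. One fit over all 9 groups of the series called 37 probes, all higher after CpG (0.147%), and 29 of these were among the 124. Its adjusted p was 0.00408 for Ifnb1 and 0.00336 for Rsad2, but 0.345 for Edn1, 0.242 for Pyhin1, 0.294 for Igtp, 0.519 for Gpr183 and 1.00 for Serinc2. The blocked calls rest on all 3 slides: 0, 0 and 2 probes were called without replicates 1, 2 and 3, where 1 residual degree of freedom is left, and the blocked fit called 0 probes when no probe was filtered out for low signal.

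**Figure D1:**
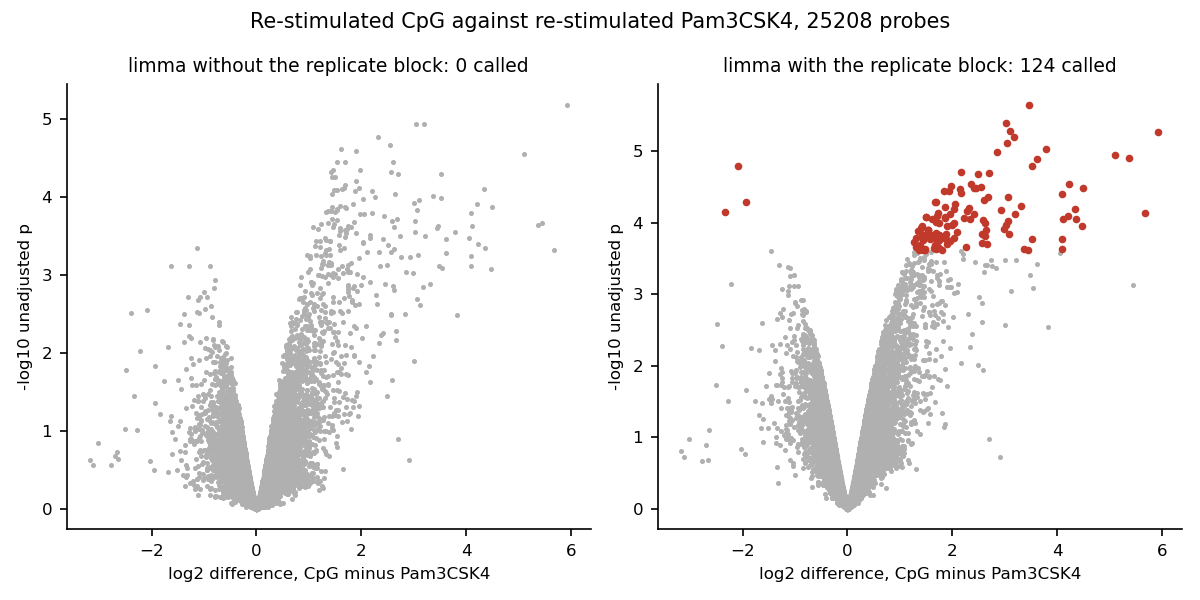
Each point is 1 of 25208 probes, with the log2 difference (re-stimulated CpG minus re-stimulated Pam3CSK4) on the x axis and −log10 of the unadjusted limma p on the y axis. Left, the fit without the replicate block, with 0 called probes; right, the fit with the block, where the 124 called probes (red) lie almost all on the side of higher expression after CpG.

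The promoters of some leading genes, all of which held a match, are shown for the elements that interferon and NF-κB signalling are known to act on. The stretches come from RefSeq promoter windows (GRCm38.p6, 250 bases before to 50 bases after each start), are read 5′ to 3′ on the gene's strand, and end before the start. Capitals mark GAAANNGAAA or its reverse complement TTTCNNTTTC, the core of the interferon-stimulated response element, except in Ifnb1, where the capitals are the NF-κB site known from this promoter.
Ifnb1, chr4:88522876-88522935: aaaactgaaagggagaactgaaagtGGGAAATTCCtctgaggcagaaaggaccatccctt
Cxcl10, chr5:92349068-92349127: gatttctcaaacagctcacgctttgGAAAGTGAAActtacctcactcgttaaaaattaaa
Rsad2, chr12:26456538-26456597: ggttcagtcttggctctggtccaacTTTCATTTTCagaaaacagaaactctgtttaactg
Ifit1, chr19:34640760-34640838: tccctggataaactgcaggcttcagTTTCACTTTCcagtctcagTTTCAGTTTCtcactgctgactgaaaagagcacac
Gbp5, chr3:142496744-142496803: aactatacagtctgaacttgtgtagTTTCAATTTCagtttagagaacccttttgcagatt
Edn1, chr13:42301373-42301432: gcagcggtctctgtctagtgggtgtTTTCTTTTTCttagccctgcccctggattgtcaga

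Searched on both strands, GAAANNGAAA was present in the windows of 1079 of 27025 genes (3.99%). Of the 57 gene symbols called higher after CpG with the block, 39 had a window, and 16 of the 39 (41%) held it. Mx2, Oasl1, Cmpk2, Trim30c and Htra4, also among the largest blocked calls, were not among the 16, for want of either a match or a window. Among the type I interferon response genes, 17 of 29 with a window held GAAANNGAAA (58.6%), against 4 of 25 cytosolic ribosomal protein genes (16%). The letters in capitals in Ifnb1, searched on both strands, were in the windows of 35 genes (0.13%). Among the 39 they were in Cxcl10 and in Ifnb1, whose match was certain because the letters are its own site. Ifit1 held GAAANNGAAA at 2 places between bases −104 and −76, and Rsad2 at bases −120 to −111. These are matches of letters, not measured binding.

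Ifnb1, which encodes interferon-β, had the largest difference of the 18483 genes in the deposited values. Its log2 values were 10.37, 9.04 and 10.03 in re-stimulated CpG replicates 1, 2 and 3 and 3.55, 3.38 and 4.71 in re-stimulated Pam3CSK4. The groups did not overlap, and only 1 of the 3 Pam3CSK4 arrays read the probe above background. The difference was 5.93 log2 units (SE 0.47), or 60.9-fold, with an adjusted p of 0.0718 without and 0.0290 with the replicate block. Its size depends on how background is treated, and with normexp values it was 3.53 log2 units. That was below the normexp differences of Cxcl10 (5.32), Rsad2 (4.99), Il12b (4.86) and Ifit1 (4.37). It was also below those of Oasl1 (4.17), Mx2 (4.07), Cmpk2 (3.90) and Gbp5 (3.81). Its probe lies at chr4:88168023-88168082 of mm9, the build of the array files, on the minus strand. The exon or UTR it falls in was not annotated here. In naïve BMDM the mean was 3.00 ± 0.11 (SD, n = 3).

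Rsad2, which encodes the antiviral enzyme viperin, read 14.19, 14.32 and 14.72 in CpG and 8.31, 9.20 and 10.41 in Pam3CSK4. The CpG arrays lay within 0.28 (SD), while the Pam3CSK4 arrays spread over 1.05 (SD) with replicate 3 highest, and the groups did not overlap. The difference was 5.11 log2 units (SE 0.51; 34.4-fold), with an adjusted p of 0.0718 without and 0.0290 with the block. Rsad2 and its neighbour Cmpk2, a nucleotide kinase gene induced with it, are less than 500000 bases apart on chromosome 12. All 3 of their tested probes were called with the block, at differences of 4.11 to 5.11.

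Ifit1, whose product binds foreign RNA, read 13.94, 13.62 and 14.42 in CpG and 8.67, 8.97 and 10.85 in Pam3CSK4. The dynamin-like antiviral GTPase gene Mx2 read 12.91, 12.05 and 12.81 in CpG and 7.55, 7.80 and 9.37 in Pam3CSK4. In both genes the Pam3CSK4 arrays stayed below every CpG array, and replicate 3 was again the highest of them. The difference was 4.50 for Ifit1 (SE 0.58; adjusted p = 0.0746 without and 0.0347 with the block). For Mx2 it was 4.35 (SE 0.51; adjusted p = 0.0718 without and 0.0379 with the block). Oasl1, a relative of the oligoadenylate synthetases, differed by 4.23 (SE 0.65; adjusted p = 0.0997 without and 0.0347 with the block).

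Isg15, a ubiquitin-like modifier that is abundant in both groups, read 16.78, 15.96 and 17.34 in CpG and 14.62, 14.35 and 15.55 in Pam3CSK4. The groups were apart by 1.85 log2 units, and on each slide the difference was similar, at 2.16, 1.61 and 1.79. Its adjusted p was 0.379 without the block and 0.0379 with it. In both groups the array of slide 3 was the highest and that of slide 2 the lowest. Not every interferon gene took part to this degree. Bst2, the virus-tethering protein tetherin, read 15.74, 15.45 and 16.59 in CpG and 15.94, 15.41 and 16.05 in Pam3CSK4. Its groups overlapped and its difference was 0.13 (SE 0.34; 95% interval −0.68 to 0.93; adjusted p = 1.00 without and 0.903 with the block).

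Of the 38 type I interferon response genes, 14 were called with the block, all higher after CpG, against 0.454% of all genes called higher and 0.0162% called lower. In 27 of the 38 the groups did not overlap, against 4.47% of all genes in this direction and 3.57% in the other. At an unadjusted p under 0.05 there were 29 of the 38, against 3.08% of all genes higher and 1.16% lower. A mean change of 1.5-fold or more was seen in 32 of the 38, against 5.38% of all genes higher and 2.43% lower. On slides 1, 2 and 3 the list's median was 1.53, 1.25 and 1.25. Without Pam3CSK4 replicate 3 the median was 1.57, and without Pam3CSK4 replicate 1 it was 1.15. Beside those named above, the nucleic acid sensor gene Ifih1, the deconjugating protease gene Usp18, Ifit3, Mx1, Herc6, Parp14, Isg20 and Ifi204 were among the 14. The transcription factor genes Stat2, Irf7 and Irf9 of the list were not called, at differences of 1.31, 0.82 and 0.98.

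**Figure D2:**
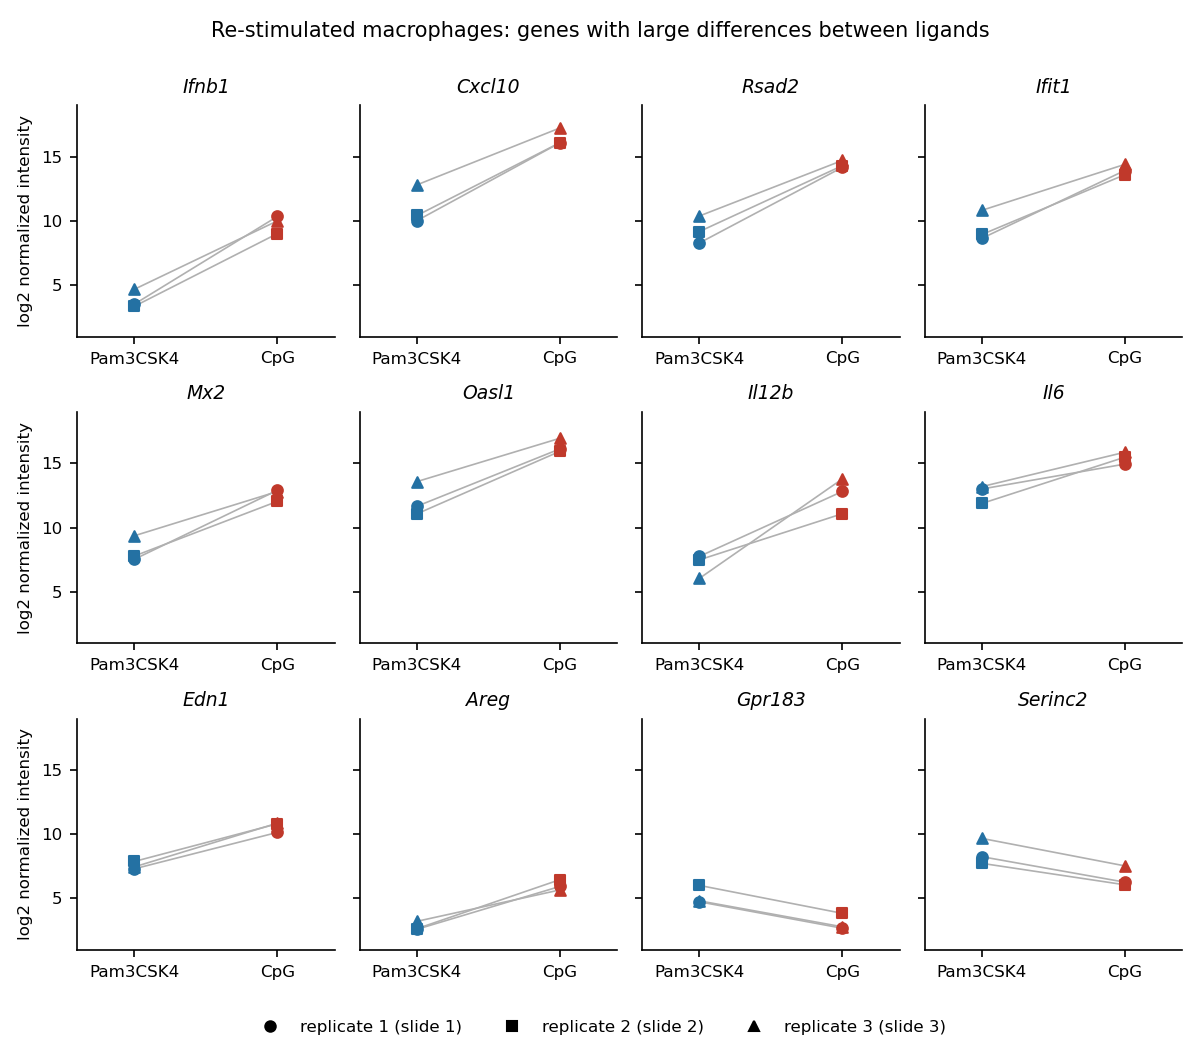
Log2 normalized intensity of 12 genes on the 6 arrays, with Pam3CSK4 at the left and CpG at the right of each panel and a line joining the 2 arrays of a slide (marker shape gives the replicate). In the first 10 genes every CpG array lies above every Pam3CSK4 array, and in Gpr183 and Serinc2 every CpG array lies below.

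The interferon-inducible GTPases, which attack the vacuoles of intracellular microbes, and other genes known as targets of interferon-γ had the highest list median, 1.82 log2 units over 18 genes tested. With the block 8 were called higher and 0 lower, against 0.454% and 0.0162% of all genes. Gbp5, a guanylate-binding protein gene, read 12.57, 11.59 and 13.30 in CpG and 7.59, 7.75 and 9.86 in Pam3CSK4. The groups did not overlap (difference 4.09, SE 0.70; adjusted p = 0.130 without and 0.0356 with the block). The 2 probes of Gbp5 differed in size, since the dimmer one gave 0.83 and was not called. Irgm2 and Igtp, of the immunity-related GTPase family, had differences of 1.89 (SE 0.22) and 1.69 (SE 0.19), with an adjusted p of 0.0718 for both without the block and of 0.0425 and 0.0488 with it. Cxcl9, a chemokine that depends strongly on interferon-γ, read 6.51, 6.95 and 8.33 in CpG and 5.72, 6.14 and 7.20 in Pam3CSK4. Its groups overlapped, and its difference of 0.91 (SE 0.56) was not called in either fit.

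Many of the probes called higher after CpG were neighbours. Of 117 with a position in mm9, 62 were in 11 runs of 3 or more with less than 500000 bases between neighbours. The same was not computed for all tested probes, of which 0.48% were called higher. Runs were built from probes called higher and end at such probes, so counts within them are high partly by selection. The longest run, at chr1:175398723-175826659, held 26 called probes of 46 tested, and all 46 were higher after CpG on average. It holds the family of Pyhin1, Ifi204, Mnda, Pydc3 and Pydc4, which encode PYHIN proteins that include sensors of DNA. Pyhin1 read 11.24, 11.10 and 11.55 in CpG and 8.30, 8.93 and 8.99 in Pam3CSK4. The groups did not overlap, and the difference was 2.55 (SE 0.24; adjusted p = 0.0718 without and 0.0347 with the block). Ifi204 differed by 1.42 (SE 0.15; adjusted p = 0.0718 without and 0.0425 with the block), with 13.77, 13.81 and 13.80 in Pam3CSK4 below 15.28, 15.05 and 15.30 in CpG. Genes of this family are alike in sequence, so probes of one may read another, and the 26 probes are not 26 independent measurements. The same holds for Irgm1, Tgtp1 and Tgtp2 on chromosome 11 (6 called of 10 tested), for Ifit1 and Ifit3 on chromosome 19 (4 of 6) and for Slfn4 and Slfn8 on chromosome 11 (3 of 6). In a run at chr1:85085196-85305068 only 3 of 17 tested probes were called, and 14 of the 17 were higher after CpG on average.

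**Figure D3:**
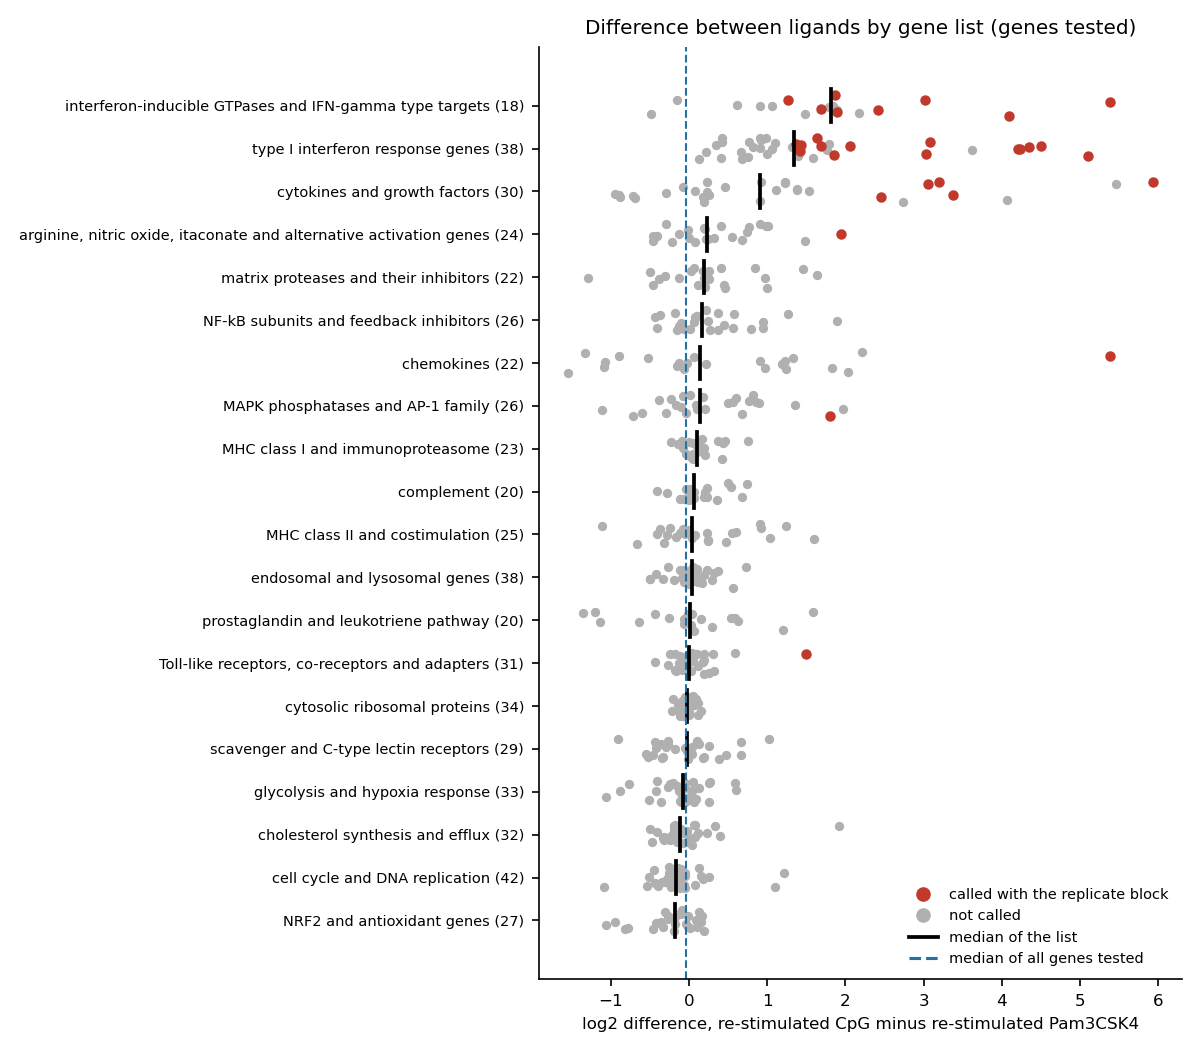
Each point is 1 tested gene of a list, placed by its log2 difference (re-stimulated CpG minus re-stimulated Pam3CSK4); red points were called with the replicate block, black bars are list medians and the dashed line is the median of all genes tested, −0.04. The interferon lists and the cytokines stand to the right, at medians of 1.82, 1.34 and 0.91, and the medians of the other lists lie between −0.17 and 0.23.

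Of 30 cytokines and growth factors tested, 5 were called with the block, all higher after CpG (0.454% of all genes called higher and 0.0162% lower), and the list's median was 0.91. On slide 1 this median was only 0.20, against 0.94 and 0.99 on slides 2 and 3. Edn1, which encodes the vasoconstrictor peptide endothelin-1, read 10.14, 10.81 and 10.86 in CpG and 7.31, 7.88 and 7.46 in Pam3CSK4. The arrays of each ligand lay close together and the groups were far apart (difference 3.05, SE 0.26, or 8.30-fold; adjusted p = 0.0718 without and 0.0290 with the block). Areg, which encodes the EGF receptor ligand amphiregulin, read 5.94, 6.46 and 5.67 in CpG and 2.60, 2.65 and 3.22 in Pam3CSK4. In the deposited values Areg was 9.16-fold higher after CpG (adjusted p = 0.0718 without and 0.0379 with the block). No Pam3CSK4 array was above background, so the readings there are uncertain and this fold is not a lower limit. Its size depends on the scale, since the difference of 3.20 log2 units became 2.71 with processed signals and 0.88 with normexp values. Il19, of the interleukin-10 family, differed by 3.38 (SE 0.41; adjusted p = 0.0746 without and 0.0488 with the block), and Tnfsf15, a TNF family ligand, by 2.45 (SE 0.46; 0.180 and 0.0347).

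Il12b, which encodes the subunit shared by interleukin-12 and interleukin-23, differed by more than any cytokine but Ifnb1 and was called in neither fit. It read 12.82, 11.09 and 13.79 in CpG and 7.77, 7.50 and 6.06 in Pam3CSK4. The groups did not overlap, but slide 3 held both the highest CpG and the lowest Pam3CSK4 array. The difference was 5.45 log2 units (SE 0.75; 43.9-fold), with an adjusted p of 0.0818 without and 0.0832 with the block, and of 0.0125 in the fit of all 9 groups. Il12a, the other subunit of interleukin-12, was dim and pointed the other way, with 4.07, 5.36 and 5.20 in CpG and 5.98, 5.44 and 5.89 in Pam3CSK4 (difference −0.89, SE 0.37), without overlap of the groups and without a call in either fit. Il23a, the partner of Il12b in interleukin-23, was above background on 0 of the 6 arrays and was not tested.

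Il6, the acute-phase cytokine, read 14.95, 15.49 and 15.87 in CpG and 13.01, 11.89 and 13.20 in Pam3CSK4. Every CpG array was above every Pam3CSK4 array, by 2.74 on average (SE 0.40; adjusted p = 0.0908 without and 0.0599 with the block). Tnf read 15.74, 15.06 and 16.34 in CpG and 13.97, 13.99 and 15.49 in Pam3CSK4. Its groups overlapped, although on each slide CpG was higher, by 1.76, 1.07 and 0.86, and it was not called in either fit. The anti-inflammatory cytokine gene Il10 differed by 1.53 (SE 0.40; adjusted p = 0.505 without and 0.231 with the block).

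Of 22 chemokines tested, 12 were higher after CpG and 10 lower on average, with a median of 0.14. At an unadjusted p under 0.05 there were 8 higher and 0 lower (3.08% and 1.16% of all genes), the groups did not overlap in 8 higher and 0 lower (4.47% and 3.57%), and Cxcl10 alone was called with the block (0.454% of all genes called higher). Cxcl10, which attracts T cells and NK cells through CXCR3, read 16.10, 16.10 and 17.25 in CpG and 10.04, 10.44 and 12.83 in Pam3CSK4. The groups did not overlap, and both of its probes were called with the block (5.38 and 5.68 log2 units). The first had an adjusted p of 0.0818 without and 0.0290 with the block. The second was above background on only 1 of the 3 Pam3CSK4 arrays. By 1.5-fold or more 10 chemokines were higher and 5 lower (5.38% and 2.43% of all genes), and the lowest difference was −1.55. The monocyte attractant Ccl4 was near the top of the intensity range, with 17.91, 17.64 and 17.97 in CpG and 15.29, 16.15 and 15.45 in Pam3CSK4. It did not overlap between groups either (difference 2.21, SE 0.26), with an adjusted p of 0.0718 without and 0.0597 with the block. The neutrophil attractants Cxcl1 and Cxcl2 differed by −0.07 and 0.07.

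The receptors and adapters of both ligands differed little. Tlr9 read 10.34, 10.29 and 10.12 in CpG and 10.61, 10.60 and 10.34 in Pam3CSK4, a difference of −0.26 (SE 0.16; adjusted p = 1.00 without and 0.662 with the block). The difference was −0.27, −0.31 and −0.21 on slides 1, 2 and 3, although the groups overlapped. Tlr2 read 14.47, 13.97 and 14.60 in CpG and 14.37, 14.16 and 14.51 in Pam3CSK4, with overlapping groups and a difference of 0.005 (SE 0.22; 95% interval −0.52 to 0.53; adjusted p = 1.00 without and 0.995 with the block). Neither receptor was called, and the interval for Tlr2 leaves room for a change of up to about 0.5 log2 units either way. Tlr1, Tlr6, Unc93b1, Cd14, Myd88 and Tirap had differences between −0.07 and 0.32, Irak3, an inhibitor of TLR signalling, −0.10 and the scavenger receptor gene Cd36 −0.43, none called in either fit. Of 31 TLR pathway genes tested, only Tlr3, the endosomal receptor for double-stranded RNA, was called with the block, where 0.454% of all genes were called higher. It read 4.99, 5.61 and 5.69 in CpG and 3.55, 4.04 and 4.19 in Pam3CSK4. No Pam3CSK4 array was above background, and in the deposited values Tlr3 was 2.83-fold higher after CpG (adjusted p = 0.147 without and 0.0379 with the block). With normexp values its difference fell to 0.42 log2 units and was not called in either fit.

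**Figure D4:**
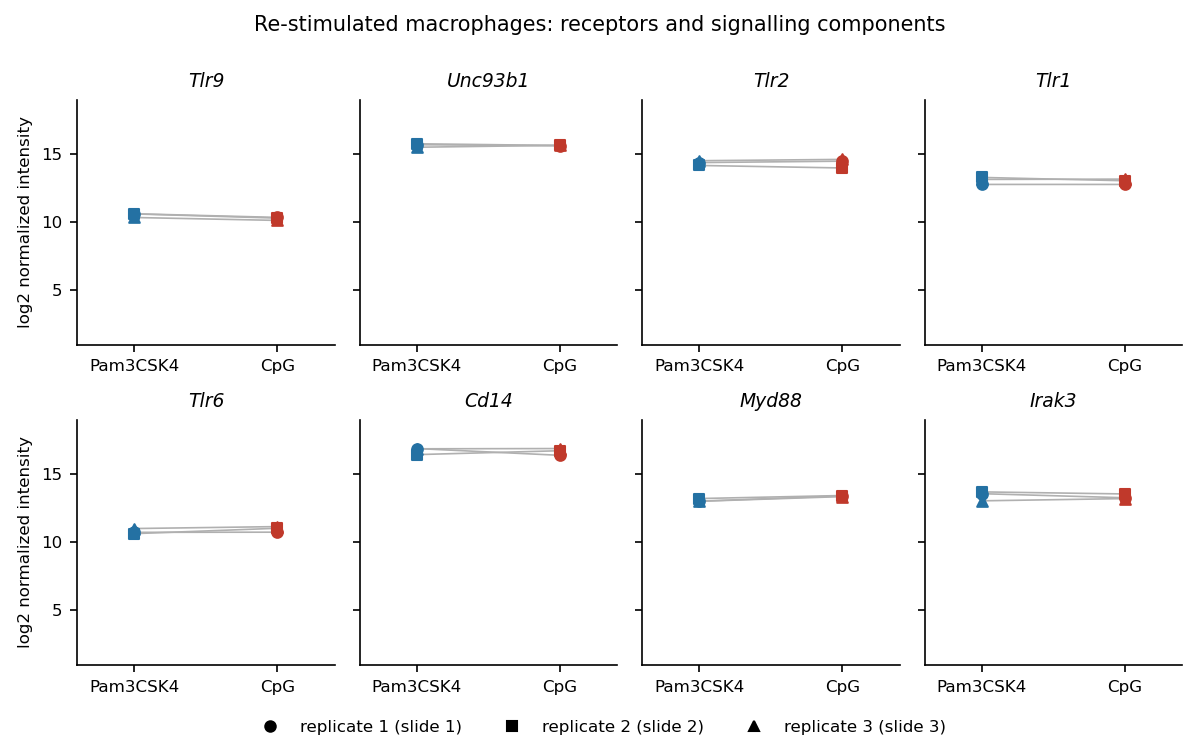
Log2 normalized intensity of 8 receptor and signalling genes on the 6 arrays, drawn as for the leading genes and on the same scale. The lines joining the 2 arrays of a slide are close to level, with differences between −0.26 (Tlr9) and 0.32 (Myd88).

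Among NF-κB subunits and feedback inhibitors, 0 of 26 tested genes were called in either fit, and 5 had an unadjusted p under 0.05, all higher after CpG (3.08% of all genes higher and 1.16% lower, with 0.454% called higher with the block). The 2 genes of the list with the smallest p were Socs1 and Tnfaip3. Socs1, an inhibitor of cytokine signalling that interferon induces, differed by 1.89 (SE 0.46; adjusted p = 0.397 without and 0.0857 with the block). Tnfaip3, a ubiquitin-editing inhibitor of NF-κB, differed by 1.27 (SE 0.31; adjusted p = 0.426 without and 0.0541 with the block). The subunit genes Nfkb1 and Rela differed by 0.38 and 0.24, and Bcl3 by −0.12. Of 26 MAP kinase phosphatases and AP-1 genes, Batf2 alone was called with the block (0.454% of all genes called higher). At an unadjusted p under 0.05, 10 of the 26 were higher and 2 lower (3.08% and 1.16% of all genes), and the groups did not overlap in 10 higher and 2 lower (4.47% and 3.57%). The phosphatase gene Dusp2 differed by 1.97 (SE 0.26; adjusted p = 0.0746 without and 0.0852 with the block). The AP-1 subunit gene Fos pointed the other way, with 10.31, 9.75 and 10.49 in CpG below 11.16, 11.34 and 11.39 in Pam3CSK4. The difference of −1.11 (SE 0.23) was not called, with an adjusted p of 0.239 without and 0.160 with the block.

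Few probes were called lower after CpG with the block, although 904 probes were lower at an unadjusted p under 0.05 in that fit, against 1386 higher. Over all genes, 659 were lower and 827 higher without overlap of the groups, and 3351 were lower and 2250 higher on all 3 slides. The 3 probes called lower read Gpr183, Serinc2 and the predicted gene Gm10639. None of the 3 was called in the blocked fit of 8 groups, where the adjusted p was 0.0945 for Gpr183 and 0.184 for Serinc2. Gpr183, a receptor for oxysterols that guides cell migration, read 2.69, 3.85 and 2.80 in CpG and 4.74, 6.02 and 4.82 in Pam3CSK4. It was above background on no CpG array and on all 3 Pam3CSK4 arrays. In the deposited values its difference was −2.08 log2 units (adjusted p = 0.290 without and 0.0316 with the block). With normexp values this difference became −0.49 and was not called in either fit. Serinc2, a membrane protein gene of the serine incorporator family, read 6.27, 6.07 and 7.54 in CpG and 8.25, 7.73 and 9.67 in Pam3CSK4. Its difference was −1.93 (SE 0.59) with similar values on all slides (−1.98, −1.67 and −2.14), and an adjusted p of 0.729 without and 0.0379 with the block. Its 3 probes gave differences between −2.50 and −1.93, and only this brightest one was called.

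By unadjusted p in the fit without the block, the leading lower genes were the pore-forming gasdermin gene Gsdma, the small GTPase gene Rhoj, the myosin light chain gene Myl2, the adapter gene Dok2 and the deubiquitinase gene Usp2. None was called in either fit. Rhoj read 7.45, 7.25 and 7.17 in CpG and 8.21, 8.17 and 8.17 in Pam3CSK4, with groups that did not overlap (difference −0.89, SE 0.15; adjusted p = 0.130 without and 0.107 with the block). The differences of the other 4 lay between −1.28 (Gsdma) and −0.94, and Gsdma was above background on no CpG array and Myl2 on 1. With normexp values the differences of Gsdma, Myl2 and Usp2 became −0.26, −0.31 and −0.61, and that of Dok2 was −0.92.

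In the remaining lists the medians lay between −0.17 and 0.23. The highest was that of arginine, nitric oxide, itaconate and alternative activation genes, where 8 of 24 were higher by 1.5-fold or more and 0 lower (5.38% and 2.43% of all genes), 2 had an unadjusted p under 0.05 (3.08% higher), and Slfn4 was called with the block (0.454% of all genes called higher). Matrix proteases and their inhibitors had a median of 0.20, with 16 of 22 higher on average and 0 called. The 34 cytosolic ribosomal protein genes lay between −0.22 and 0.15. The 42 cell cycle and DNA replication genes had a median of −0.16, with 0 called. Their medians on slides 1, 2 and 3 were 0.17, −0.84 and 0.10, so slide 2 alone was negative. Only 7 of the 42 were higher after CpG on average, against 7769 of all 18483 genes. The lowest median, −0.17, was that of NRF2 and antioxidant genes, with 7 of 27 higher on average and 0 called. Its medians on slides 1, 2 and 3 were −0.36, 0.36 and −0.54. Endosomal and lysosomal genes (median 0.04 over 38), MHC class I and immunoproteasome genes (0.10 over 23) and complement genes (0.07 over 20) also had 0 calls in either fit, although several of them are interferon targets. The highest MHC class I gene was the peptide transporter gene Tap1 at 0.75 (SE 0.22; adjusted p = 0.690 without and 0.208 with the block).

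The difference at the second stimulation was set beside that at the first, after 4 h with the ligand in cells not treated before. Acute CpG had 3 arrays and acute Pam3CSK4 2, since its replicate 2 has no deposited values. Over the type I interferon response genes the median difference between acute CpG and acute Pam3CSK4 was 1.56, against 1.34 after re-stimulation. Between the acute groups, limma called 1 of 26455 probes, which was lower after CpG, and 0 higher. At an unadjusted p under 0.05, 747 probes were higher after acute CpG and 536 lower. The test of the change in the difference from acute to re-stimulated called 0 of 26455 probes (0%), with a smallest adjusted p of 0.243 and 285 probes at an unadjusted p under 0.05. With the replicate block it also called 0, with 604 probes at an unadjusted p under 0.05. In each of these tests such probes were a smaller share of the 26455 than 0.05, the share expected with no difference. For Ifnb1 the change was 1.62 (SE 1.45) and for Cxcl9 −3.28 (SE 1.38), both with an adjusted p of 1.00. The acute CpG arrays had an SD of 2.09 for Ifnb1 and 1.76 for Rsad2, and these standard errors leave room for changes of more than 1 log2 unit.

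Levels in naïve cells give a further point of reference, without a test here. Of the 38 type I interferon response genes, 24 had a re-stimulated Pam3CSK4 mean below the naïve mean and 14 above, against 7 and 31 for re-stimulated CpG. The Pam3CSK4 mean was below the naïve mean for Rsad2 (9.31 ± 1.05 against 11.04 ± 0.53, SD, n = 3 each), Cmpk2 (8.31 ± 1.13 against 10.30 ± 0.31) and Mx2 (8.24 ± 0.99 against 9.31 ± 0.08). It was above the naïve mean for the interferon targets Isg15 (14.84 ± 0.63 against 14.09 ± 0.15), Cxcl10 (11.11 ± 1.51 against 8.58 ± 1.56) and Gbp5 (8.40 ± 1.27 against 7.13 ± 0.47), and for Il6 (12.70 ± 0.71 against 2.95 ± 0.55) and Edn1 (7.55 ± 0.30 against 2.48 ± 0.32). The re-stimulated CpG mean was above the naïve mean for these 8 genes. On naïve replicate 3, 74.6% of probes were above background, against 42.1% to 46.1% on the 6 arrays compared here.

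**Figure D5:**
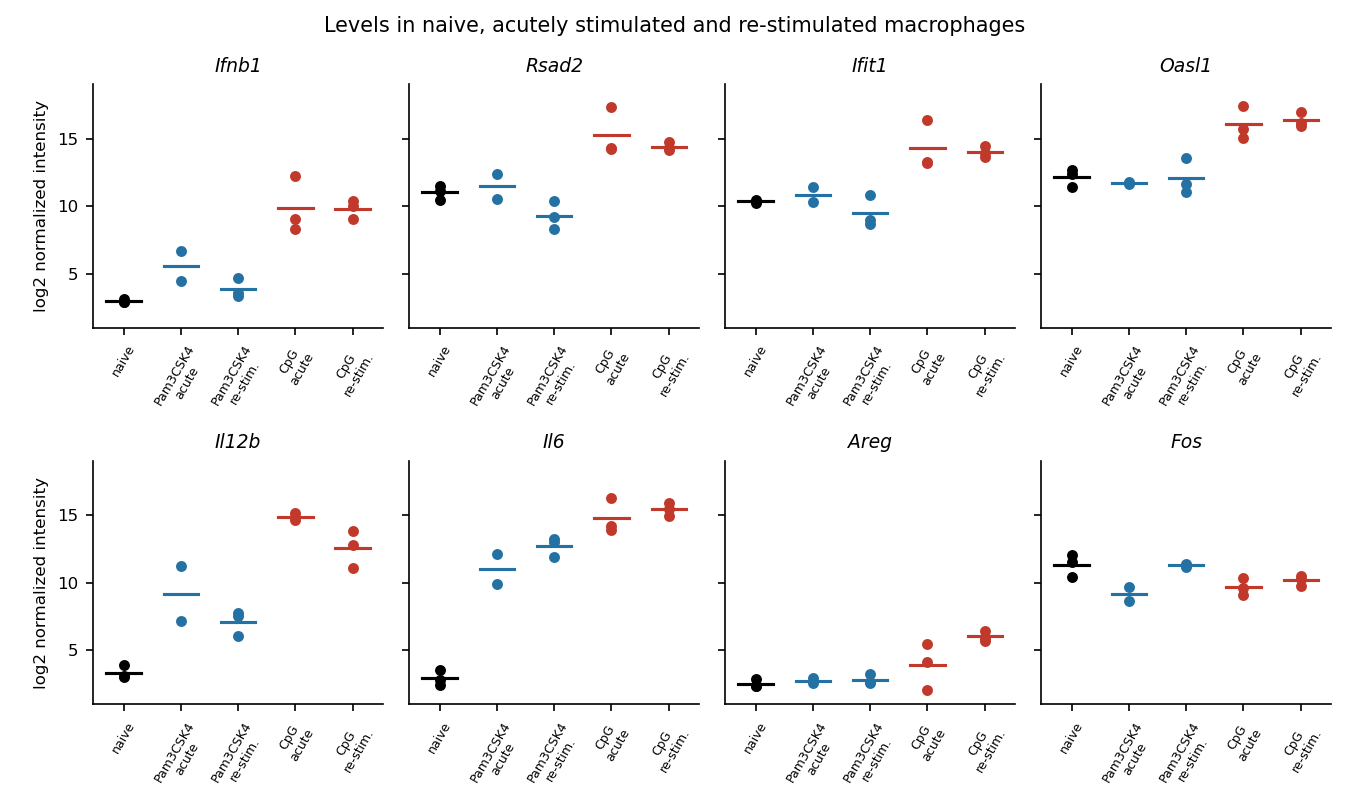
Log2 normalized intensity of 8 genes in naïve, acute and re-stimulated BMDM of both ligands; points are arrays (2 for acute Pam3CSK4, otherwise 3) and bars are means. The Ifnb1 points of re-stimulated CpG lie between 9.04 and 10.37 and those of re-stimulated Pam3CSK4 between 3.38 and 4.71, and Fos is lower after CpG re-stimulation than after Pam3CSK4 re-stimulation.

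The arrays held the markers of macrophages. All 10 macrophage markers were above background on all 6 arrays, with the Csf1r probe the brightest. Here and below, the brightness of different probes does not rank the amounts of their transcripts. The summed levels of the macrophage markers were 19.28, 19.44 and 19.56 (log2) in CpG and 19.77, 19.61 and 19.71 in Pam3CSK4. The CpG sums were thus slightly below all Pam3CSK4 sums. None of the markers listed for 10 cell types was called with the block. Of the plasmacytoid dendritic cell markers, a cell type known for interferon production, 8 of 10 were above background on all arrays, with Bst2 and Siglech the brightest and Klk1 above it on none. Their summed levels overlapped, at 16.89, 16.55 and 17.27 in CpG and 16.96, 16.70 and 17.18 in Pam3CSK4. The lists of other cell types held both detected and undetected genes. The T cell genes Cd4, Cd3e, Cd28 and Lat, the B cell genes Cd79a, Cd79b and Fcer2a, the NK cell genes Nkg7 and Prf1, the dendritic cell genes Itgax and Ccr7 and the mast cell gene Hdc were above background on all 6 arrays. Ms4a1, Cd3d, Cd3g, Ncr1, Xcr1, Clec9a and Fcer1a were above background on 0 arrays. The summed T cell list was 11.84, 11.83 and 11.28 in CpG and 12.06, 11.94 and 11.48 in Pam3CSK4, and the summed B cell list 10.36, 9.53 and 8.45 against 10.55, 10.47 and 8.61, with overlapping groups in both and CpG lower on each slide. The summed mast cell and basophil list, led by Hdc, was 8.46, 8.57 and 8.15 in CpG and 7.97, 8.25 and 7.34 in Pam3CSK4, with overlapping groups and CpG higher on each slide. Neutrophil markers, led by S100a8 and S100a9, had overlapping sums, between 15.02 and 16.32 in CpG and between 15.76 and 16.06 in Pam3CSK4. S100a9 was brighter than S100a8 on 3 of the 6 arrays, and S100a9, Ly6g, Ngp and Ltf were far lower on both arrays of slide 3, where S100a8 read 14.83 in CpG and 15.66 in Pam3CSK4. Ly6g read 8.74, 10.23 and 3.81 in CpG and 8.96, 10.02 and 2.38 in Pam3CSK4. Without slide 3 the blocked fit called 2 probes, and without the Pam3CSK4 array of slide 3 the fit with no block called 33. Whether these markers had a part in the differences was not tested. In bulk RNA, fewer cells of a type and less RNA per cell cannot be told apart.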

How the data were processed

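Per the labels and methods, the authors deposited scanner files, which hold the intensity of each spot read by Agilent Feature Extraction 10.7.3.1, and log2 values of 25 arrays, made in limma by RMA background correction and quantile normalization. The deposited log2 values (0.943 to 18.8) were the main values. Flags of signal well above background came from the deposited scanner files. The same steps repeated on median intensity minus median background gave values within a median of 0.0354 log2 units of the authors'.

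Probes flagged well above background on 2 or more arrays of one of the groups were tested. Tests used limma 3.58.1 in R 4.3.3 (moderated linear models, Benjamini-Hochberg over all probes tested), fitted on the 6 arrays, and were tested on simulated data. A call needed an adjusted p under 0.05 and 1.5-fold. The main fit had no block. Same-numbered arrays of both groups shared a slide, and their deviations from group means correlated at 0.38, 0.46 and 0.71 over 25208 probes (other pairs −0.50 to 0.11), so the numbers pair the samples and blocked values are given beside the results. Gene names and mm9 positions are those of the array files; a gene with several probes is given by the one with the highest mean. Named genes are the 5 of each direction with the smallest p (fewer than 5 being called), genes the study followed, TLR receptors, co-receptors and adapters and the leading 2 of each gene list; the largest blocked calls and other list members were added after their values were seen. The comparison, gene lists and rules were chosen with earlier results of these data known. The number of arrays limits the precision. Alternatives covered values, detection filter, model, threshold and each array left out.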

Additional observations from a re-analysis of the deposited data

How the results depend on the processing

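The count of 0 calls between the re-stimulated groups depended on the model and on 1 array. It was 31 with processed signals scaled to the 75th percentile, 95 with normexp values, 57 with the deposited values centred on detected probes, 17 with the stricter detection filter, 37 with all 9 groups in 1 fit, 80 when that fit took slides as random effects and 95 with trended, robust moderation, and all of these probes were higher after CpG. It stayed at 0 with repeated RMA values, with no detection filter, and with no fold or a 2-fold requirement. Leaving out 1 array gave 0 to 33 calls, the 33 without Pam3CSK4 replicate 3.

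With the replicate block the count of 124 became 110 with repeated RMA values, 99 with processed signals, 241 with normexp values, 193 with centred values, 202 with the stricter filter, 0 with no filter and 13 in a fit of the 8 groups that share slides. These blocked alternatives were chosen after seeing the data. Leaving out a replicate number gave 0 to 2 calls, and the 2 were the probes of Cxcl10. For the change from acute to re-stimulated, the block and most settings gave 0, centred values and the 9-group fit 1, and the slide as a random block 2. Leaving out an array gave 0 to 4, the 4 without Pam3CSK4 acute replicate 3, among them Hecw2 and Phactr1, and 1 each without Pam3CSK4 acute replicate 1 and without CpG acute replicate 2.

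The type I interferon median was 1.17 with normexp and 1.51 with centred values, and 1.15 to 1.57 with 1 array left out. Centring moved the median of all genes from −0.04 to 0.13. Of 75 named genes, 67 kept their sign under every alternative. Signs turned for Cd36, at −0.43, and for genes closer to 0. With centred values, with and without the block, these were Bcl3 (0.0489), Cd14 (0.108), Irak3 (0.0775), Tirap (0.160), Tlr1 (0.0990) and Unc93b1 (0.154), with processed signals Tirap (0.00753), Tlr1 (0.0161) and Unc93b1 (0.0758), and with normexp Tlr2 (−0.000698). With 1 array left out, Tlr2 lay between −0.122 and 0.193, Tirap −0.249 and 0.223, Tlr1 −0.221 and 0.0366, Unc93b1 −0.0928 and 0.0351, Cd14 −0.210 and 0.0745, Irak3 −0.292 and 0.0361, Bcl3 −0.327 and 0.0180 and Cd36 −0.884 and 0.0252. The causes were not tested. With normexp values the dim genes Ifnb1, Areg, Tlr3, Gpr183 and Gsdma gave 3.53, 0.88, 0.42, −0.49 and −0.26.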
